A study of Mus musculus with 6 samples.

Results

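Fgf21 and the genes of its receptors were followed in mouse liver in which an active form of the transcription factor IRF3 had been switched on. The set was named by gene and not by any measured value: Fgf21, the coreceptor gene Klb, and the receptor genes Fgfr1, Fgfr2, Fgfr3 and Fgfr4. Of these 6 genes, 5 had a value among the 20894 gene identifiers of the count table, and all 5 passed the filter on low counts. Klb was not analysed here.

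Both groups were mice carrying the Irf3 LSL-2D allele, in which Cre removes a stop cassette so that the 2D form of IRF3 can be made. IRF3-2D mice received AAV8-TBG-Cre and Ctrl mice AAV8-TBG-GFP, an adeno-associated virus whose TBG promoter is active in hepatocytes. Both groups were then given 3 g/kg ethanol by intraperitoneal injection, and liver was taken 2 h later, with 3 samples in each group. All samples therefore share the allele, a virus and ethanol. Strain, sex and age are not given in the labels. The groups differ in Cre against GFP as well as in active IRF3, and these cannot be told apart, since no group received Cre while lacking the allele. The labels do not say that the 3 samples of a group came from separate mice, so the p-values speak of how these samples vary, and that variation may be technical.

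FGF21 is an endocrine fibroblast growth factor made mainly by hepatocytes, and its gene is induced by fasting, by amino acid shortage and by sugars and ethanol. It binds beta-Klotho, the product of Klb, which holds it to an FGF receptor, chiefly FGFR1 in fat and brain. FGFR4 is the receptor of hepatocytes. With beta-Klotho it takes up the signal of FGF15 (FGF19 in humans), an intestinal hormone that restrains bile acid synthesis. FGFR2 and FGFR3 are the other receptors of the family, and all of them are receptor tyrosine kinases that signal through the adaptor FRS2 to RAS and ERK. The title of the series names Fgf21 as repressed through IRF3 and POLR2G, a subunit of RNA polymerase II, and setting IRF3-2D against Ctrl liver addresses that question.

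The sequence just upstream of each called member is shown because Fgf21 is a classic target of several transcription factors whose sites lie there. The 250 bases before the RefSeq start are given 5′ to 3′ on the gene's own strand (RefSeq, GRCm38.p6). Capitals mark matches to 6 motifs, each searched on both strands. These are TGATGNAAT, the element bound by ATF4, and the E-box, spelled CACGTG. The TATA box was searched as TATAAA and the GC box as GGGCGG. The last are the core of nuclear receptor sites, spelled AGGTCA, and the IRF site, a pair of GAAA cores. The windows are chr7:45615491-45615740 on the minus strand for Fgf21, chr13:55152568-55152817 on the plus strand for Fgfr4, and chr5:33721474-33721723 on the plus strand for the first of the Fgfr3 starts.
Fgf21: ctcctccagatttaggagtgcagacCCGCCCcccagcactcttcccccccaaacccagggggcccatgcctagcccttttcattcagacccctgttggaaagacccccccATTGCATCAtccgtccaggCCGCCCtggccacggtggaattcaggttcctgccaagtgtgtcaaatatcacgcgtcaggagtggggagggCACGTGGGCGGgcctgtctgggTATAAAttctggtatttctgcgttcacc
Fgfr4: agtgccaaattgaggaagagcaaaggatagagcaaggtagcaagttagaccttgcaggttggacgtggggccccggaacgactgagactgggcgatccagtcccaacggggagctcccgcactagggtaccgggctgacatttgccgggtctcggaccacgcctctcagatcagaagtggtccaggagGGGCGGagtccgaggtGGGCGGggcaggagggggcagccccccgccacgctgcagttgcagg
Fgfr3: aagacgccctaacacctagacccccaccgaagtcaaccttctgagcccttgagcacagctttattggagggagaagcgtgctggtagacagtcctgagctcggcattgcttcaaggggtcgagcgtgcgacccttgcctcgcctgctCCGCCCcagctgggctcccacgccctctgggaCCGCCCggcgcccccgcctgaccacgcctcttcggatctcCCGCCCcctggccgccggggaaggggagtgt
Counted back from the start, the Fgf21 window held the ATF4 element at -140, an E-box at -50 that overlaps a GC box at -45, and a TATA box at -28. It held further GC boxes at -225 and -121. Among 32851 RefSeq promoter windows of the same length, 0.816% held the ATF4 element, 6.02% the E-box, 12.4% the TATA box and 32.7% the GC box. The Fgfr4 window held GC boxes at -62 and -46, and the Fgfr3 window held them at -103, -71 and -31. The nuclear receptor core (in 14% of the windows) and the IRF site (in 2.98%) matched none of the 3 windows. A match describes the letters and is no evidence of binding.

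Library totals were 12054096 to 13606973 counts in IRF3-2D and 13940893 to 14830629 in Ctrl, and levels are given as CPM (a gene's counts scaled to a common library size) after TMM scaling. Irf3, the gene of the allele, had 1816, 1569 and 2084 counts in IRF3-2D libraries and 521, 552 and 772 in Ctrl libraries. It rose by 1.27 on the log2 scale (SE 0.16, adjusted p = 0.0015 by edgeR). The counts cover the whole gene and do not separate the 2D form. Polr2g had 1297, 1188 and 875 counts in IRF3-2D and 146, 129 and 151 in Ctrl libraries, a rise of 6.41-fold (adjusted p = 8.7e-05 by edgeR). Summed hepatocyte markers were 98714.5 to 112660 CPM in IRF3-2D and 178855 to 233519 CPM in Ctrl libraries, with 2 of 19 tested markers higher and 13 lower. Without Ctrl replicate 2 and IRF3-2D replicate 1, 0 were higher and 6 lower, without IRF3-2D replicate 1 alone 1 and 12, and library totals alone gave 2 higher and 7 lower. In whole tissue, fewer cells of a type and less RNA per cell cannot be told apart, and the part of the hepatocyte markers in the results below was not tested. Endothelial markers summed to 423 to 553 CPM in IRF3-2D and 634 to 650 CPM in Ctrl, and Kupffer cell and macrophage markers summed to 1045 to 1430 CPM in IRF3-2D and 635 to 739 CPM in Ctrl. Stellate cell, cholangiocyte and adipocyte markers summed to at most 442 CPM in any library, with Pdgfrb and Retn at 0. Calls by edgeR were 5 higher and 0 lower of 15 Kupffer cell and macrophage genes, 0 and 6 of 15 endothelial, 0 and 1 of 14 stellate, 0 and 0 of 7 cholangiocyte, and 0 and 3 of 5 adipocyte genes. Across all tested genes 13.2% were called higher and 13.1% lower. With single libraries left out, 2 to 8 Kupffer cell and macrophage genes were higher, and 2 to 4 endothelial and 1 to 3 adipocyte genes were lower. Scaling by library totals alone gave 11 higher and 0 lower Kupffer cell and macrophage genes, 1 and 0 endothelial, 1 and 0 stellate, 2 and 0 cholangiocyte, and 0 and 2 adipocyte genes. The direction of the endothelial markers thus turned with the scaling, their median log2 fold change being -0.42 with TMM and 0.04 with library totals alone. Without both pancreas-rich libraries 1 Kupffer cell and macrophage gene was higher, and 1 endothelial and 0 adipocyte genes were lower. Pancreatic acinar transcripts were present in every library, at 2534, 362 and 482 CPM summed over 10 genes in IRF3-2D and at 1347, 5232 and 356 CPM in Ctrl. Results below are therefore also given without the 2 libraries richest in them, Ctrl replicate 2 and IRF3-2D replicate 1.

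Fgf21 fell 11.1-fold in IRF3-2D liver. Fgf21 (ENSMUSG00000030827, chromosome 7, 45613886 to 45615490, minus strand, GRCm38, 1 annotated transcript) had 1, 14 and 14 counts in IRF3-2D libraries, against 85, 91 and 90 in Ctrl libraries. The Ctrl libraries lay close together, and the groups did not overlap: the highest IRF3-2D library was far below the lowest Ctrl library. Its level averaged 0.644 ± 0.502 CPM in IRF3-2D and 7.21 ± 0.387 CPM in Ctrl (SD, n = 3 each). On the log2 scale the fold change was -3.47 (SE 0.68), with a Benjamini-Hochberg adjusted p of 0.010 over all tested genes by edgeR's quasi-likelihood test, and a gene is called below when this is under 0.05. Among the tested genes ordered from the largest fall, Fgf21 stood at place 51. The transcript shares 0% of its 31-base words with other genes, so its reads could be placed.

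Counting error is large at this depth. The exact 95% Poisson interval ran from 0.0253 to 5.57 counts for the single count of IRF3-2D replicate 1 and from 7.65 to 23.5 for each library with 14 counts. It ran from 67.9 to 105 for the lowest Ctrl library, and these intervals cover counting error only. A library's 3 counts correspond to 0.194 to 0.203 CPM in IRF3-2D, so replicate 1 lay under that level and the other two IRF3-2D libraries above it. Without IRF3-2D replicate 1 the log2 fold change of Fgf21 was -2.94 (adjusted p = 0.0035 by edgeR), and over the 6 fits that each left out 1 library it ranged from -3.85 to -2.94, with the call kept in each.

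Acinar cells of the pancreas also express Fgf21, and pancreatic transcripts differed between libraries, so the levels are set side by side. IRF3-2D replicate 1 had the most pancreatic RNA of its group at 2534 CPM over the 10 acinar genes and the least Fgf21 at 0.0647 CPM. The library with the most pancreatic RNA of all, Ctrl replicate 2 at 5232 CPM, had 7.65 CPM of Fgf21, and the one with the least, Ctrl replicate 3 at 356 CPM, had 7.03 CPM. None of the 10 acinar genes was called by edgeR (0 at an unadjusted p under 0.05) or by DESeq2 or limma-voom, and their median log2 fold change was -1.18, which became 0.20 without Ctrl replicate 2 and -2.66 without IRF3-2D replicate 1. Without Ctrl replicate 2 and IRF3-2D replicate 1 the log2 fold change of Fgf21 was -2.89 (adjusted p = 0.0168 by edgeR), and the call held.

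**Figure D1:**
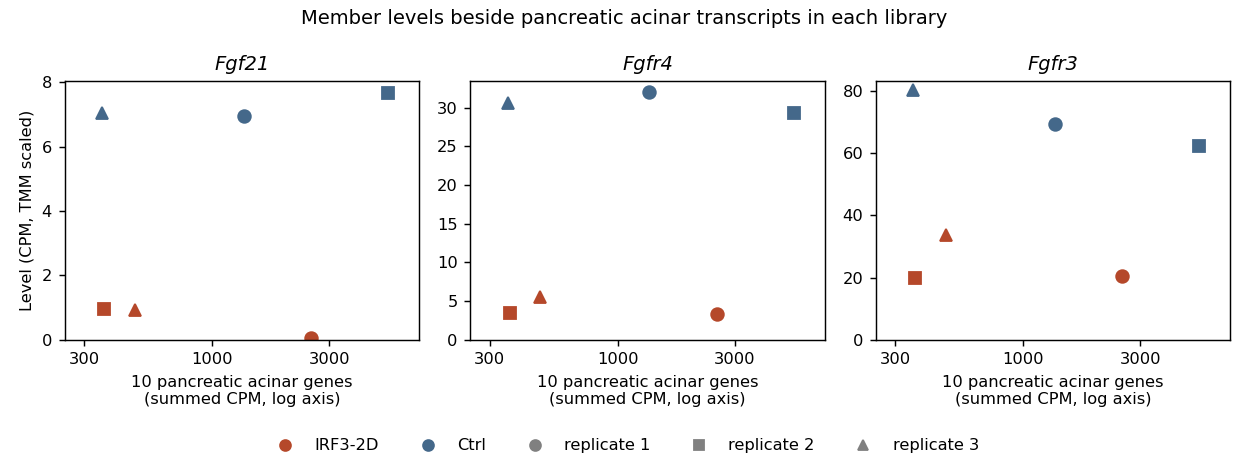
Levels of Fgf21, Fgfr4 and Fgfr3 (CPM after TMM scaling, vertical axis) against the summed CPM of 10 pancreatic acinar genes (log axis), 1 point per library, with IRF3-2D in red and Ctrl in blue. The IRF3-2D points, at 2534, 362 and 482 CPM of pancreatic RNA, lie below the Ctrl points, at 1347, 5232 and 356 CPM, for each of these genes, and no IRF3-2D library lies near 5232 CPM.

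The 16 other annotated protein-coding genes within 100000 bases of Fgf21 gave 8 tested genes. Of these, 0 were called higher and 1 lower by edgeR, beside 13.2% and 13.1% of all tested genes. That one was Bcat2, which encodes a mitochondrial branched-chain aminotransferase, and its log2 fold change was -0.44 (adjusted p = 0.036). The nearest of the 16, Fut1, lies 1799 bases away and had at most 4 counts in any library. Rasip1, 11998 bases away, had 139, 165 and 144 counts in IRF3-2D and 156, 130 and 149 in Ctrl libraries. The log2 fold changes of the 8 tested neighbours ran from -1.27 to 0.63, so none was as low as that of Fgf21.

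Fgfr4 fell 7.45-fold in IRF3-2D liver. Fgfr4 (ENSMUSG00000005320, chromosome 13, 55152640 to 55168759, plus strand, GRCm38) had 52, 51 and 84 counts in IRF3-2D libraries, against 392, 349 and 392 in Ctrl libraries. No IRF3-2D library came near the lowest Ctrl library. The level of this hepatocyte receptor averaged 4.11 ± 1.21 CPM in IRF3-2D and 30.7 ± 1.33 CPM in Ctrl (SD, n = 3 each), with log2 fold change -2.90, SE 0.21 and adjusted p = 0.000174 by edgeR. The gene has 3 annotated transcripts, 1 of them coding, and shares 0% of its words with other genes. Leaving out single libraries gave log2 fold changes from -3.18 to -2.77, and leaving out both pancreas-rich libraries gave -2.80.

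Fgfr3 fell 2.85-fold. Fgfr3 (ENSMUSG00000054252, chromosome 5, 33721674 to 33737068, plus strand, GRCm38) had 319, 294 and 514 counts in IRF3-2D libraries, against 850, 740 and 1026 in Ctrl libraries. The groups did not overlap, and every IRF3-2D library was below every Ctrl library. Its level averaged 24.7 ± 7.75 CPM in IRF3-2D and 70.6 ± 9.03 CPM in Ctrl (SD, n = 3 each), with log2 fold change -1.51, SE 0.22 and adjusted p = 0.00286 by edgeR. With 17 annotated transcripts, the value may cover only some of the gene's output, and 0.445% of its words occur elsewhere, chiefly in the pseudogene Fgfr3-ps. The gene overlaps G630022F23Rik. Single libraries left out gave -1.81 to -1.38, and both pancreas-rich libraries left out gave -1.48.

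Fgfr2 and Fgfr1 were not called. Fgfr2 (ENSMUSG00000030849, chromosome 7, 130162451 to 130266808 in RefSeq, minus strand, GRCm38.p6) had 954, 792 and 567 counts in IRF3-2D and 588, 404 and 587 in Ctrl libraries. IRF3-2D replicate 3 lay inside the Ctrl range, and the other two IRF3-2D libraries lay above it in counts. The level of Fgfr2 was 50.8 ± 12.5 CPM in IRF3-2D and 42.6 ± 7.57 CPM in Ctrl (SD, n = 3 each), with log2 fold change 0.25, SE 0.21 and adjusted p = 0.416 by edgeR. Scaled by library totals alone it was 0.71 (adjusted p = 0.039), a call, and without both pancreas-rich libraries it was -0.049. The scaling moves the median of all tested genes from 0.03 with TMM to 0.49 with library totals alone. Of the words of Fgfr2, 2.69% occur in other genes, chiefly Ctbp2, which read-through transcripts join to it in GENCODE M21.

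Fgfr1 was low in whole liver and varied within both groups. Fgfr1 (ENSMUSG00000031565, chromosome 8, 25513654 to 25575718, plus strand, GRCm38), the main FGF21 receptor of fat and brain, had 148, 76 and 223 counts in IRF3-2D and 41, 92 and 149 in Ctrl libraries. The 2 groups overlapped, with IRF3-2D replicate 2 below 2 of the Ctrl libraries. Its level was 9.78 ± 4.74 CPM in IRF3-2D and 7.58 ± 4.15 CPM in Ctrl (SD, n = 3 each), with log2 fold change 0.37, SE 0.51 and adjusted p = 0.640 by edgeR. Leaving out single libraries moved it from -0.050 without IRF3-2D replicate 3 to 0.82 without Ctrl replicate 3, with no call in any of these fits. An antisense gene, Gm16159, overlaps Fgfr1, and whether counting used strand is not given in the sources used here.

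Of the 5 tested members, 3 were called lower and 0 higher, and the same 3 had IRF3-2D libraries all below the Ctrl libraries. Across all 10802 tested genes 13.1% were called lower and 13.2% higher, and 4.84% were called lower by more than 2-fold, as all 3 called members were. Groups were apart without overlap, with IRF3-2D lower, for 21.2% of tested genes and, with IRF3-2D higher, for 23.7%. Library totals alone gave 4500 higher and 571 lower calls over all genes, against 1426 and 1418 with TMM. The same 3 members kept their calls with the IRF3-2D and Ctrl libraries richest in pancreatic RNA left out, in each fit that left out 1 library, with library totals alone and with DESeq2.

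**Figure D2:**
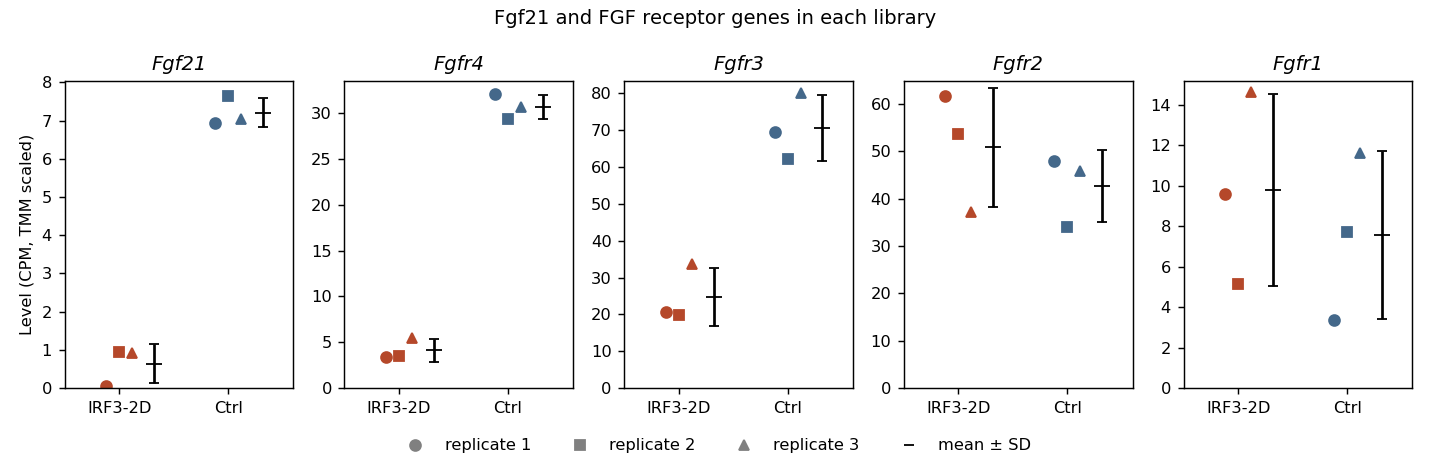
Levels of Fgf21, Fgfr4, Fgfr3, Fgfr2 and Fgfr1 (CPM after TMM scaling, vertical axis from 0) in each of the 3 IRF3-2D and 3 Ctrl libraries, with marker shapes for replicates and bars for mean ± SD. IRF3-2D and Ctrl libraries are apart for Fgf21, Fgfr4 and Fgfr3 and overlap for Fgfr2 and Fgfr1.

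To compare genes with each other, CPM was divided by the length of each gene's longest annotated transcript. On this scale (CPM per kilobase) the order in IRF3-2D liver was Fgfr2 at 11.5 ± 2.83, Fgfr3 at 5.83 ± 1.83, Fgfr1 at 1.94 ± 0.940, Fgfr4 at 1.24 ± 0.364 and Fgf21 at 0.677 ± 0.527 (SD, n = 3). In Ctrl liver it was Fgfr3 at 16.6 ± 2.13, Fgfr2 at 9.63 ± 1.71, Fgfr4 at 9.23 ± 0.401, Fgf21 at 7.58 ± 0.407 and Fgfr1 at 1.503 ± 0.823 (SD, n = 3). Fgfr1 and Fgfr4 could not be ordered in IRF3-2D liver, where their libraries overlapped, and in Ctrl liver Fgfr2 could be ordered against neither Fgfr4 nor Fgf21. Summed over the 4 receptors the level was 20.5 ± 1.46 CPM per kilobase in IRF3-2D and 37.0 ± 4.06 in Ctrl, a ratio of 0.554. The order may shift with the transcript length used, and the ratio with the scaling as well. TMM factors were 1.12 to 1.23 in IRF3-2D and 0.82 to 0.88 in Ctrl libraries. Other lengths and scalings were not tried for these values.

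The makeup of the receptor pool differed between the groups, and a share within a library does not depend on the scaling between libraries. Fgfr4 made up 4.66%, 5.51% and 7.93% of the receptor counts per kilobase in IRF3-2D libraries, against 25.7%, 27.0% and 22.6% in Ctrl libraries, a difference of -19.1 percentage points. Fgfr3 made up 22.4%, 24.9% and 38.0% in IRF3-2D, against 43.6%, 44.8% and 46.3% in Ctrl. Both shares were lower in every IRF3-2D library than in any Ctrl library.

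Fgfr2 took 64.2%, 64.2% and 40.2% of the pool in IRF3-2D libraries, against 28.9%, 23.5% and 25.4% in Ctrl libraries. Its share was higher in every IRF3-2D library, although its own level was not called. Fgfr1 took 8.75%, 5.41% and 13.9% in IRF3-2D and 1.77%, 4.69% and 5.67% in Ctrl, with the groups overlapping. The ratio of Fgfr4 to Fgfr3 counts, which needs no gene length, was 0.163, 0.173 and 0.163 in IRF3-2D libraries, against 0.461, 0.472 and 0.382 in Ctrl libraries. The size of the Fgfr4 share does depend on the length used. The difference was -15.8 points with no length and -26.2 with the union of exons, and it was -4.22 with the shortest coding transcript.

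**Figure D3:**
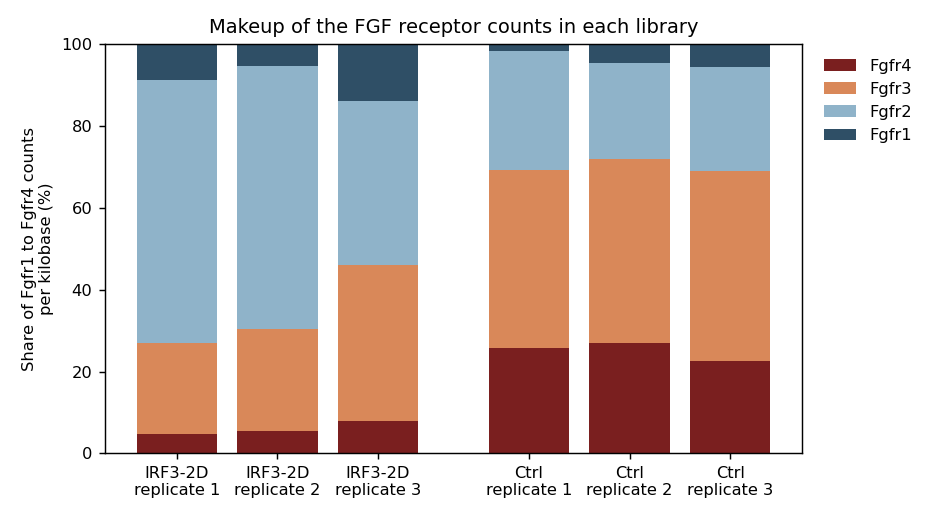
Share of each FGF receptor gene in the summed Fgfr1 to Fgfr4 counts per kilobase (%), stacked, in each IRF3-2D and Ctrl library. Fgfr4 and Fgfr3 together fill less of the pool in each IRF3-2D library than in any Ctrl library, and Fgfr2 fills 40.2% to 64.2% in IRF3-2D against 23.5% to 28.9% in Ctrl.

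Among the other FGF ligands, Fgf1 also fell. Of 22 ligand genes, 9 were at 0 in every library, Fgf15 among them, and 3 passed the filter: Fgf21, Fgf1 and Fgf2. Fgf1, a ligand of all FGF receptors that needs heparan sulfate and not Klotho, had 233, 177 and 171 counts in IRF3-2D libraries, against 596, 1091 and 996 in Ctrl libraries. Its level fell 5.70-fold (log2 fold change -2.51, SE 0.25, adjusted p = 0.000618 by edgeR). Fgf2 had 37, 41 and 44 counts in IRF3-2D and 32, 44 and 43 in Ctrl libraries, with groups that overlapped (adjusted p = 0.564 by edgeR). Of the 3 tested ligand genes, 2 were called lower, Fgf1 and the member Fgf21 itself, and 0 higher. The shares over all tested genes were 13.1% and 13.2%. The calls of Fgf1 and Fgf21 held without the pancreas-rich libraries. Of 6 listed genes for the cleavage and fate of FGF21 protein, 3 were tested, with a median log2 fold change of -0.43. Of these 3, 2 were called lower and 0 higher, beside 13.1% and 13.2% of all tested genes. Both calls were lost with library totals alone and without both pancreas-rich libraries. That of Furin, a protease that cuts precursors of secreted proteins, was also lost with no filter on low counts and when Ctrl replicate 2, Ctrl replicate 3, IRF3-2D replicate 1 or IRF3-2D replicate 2 was left out.

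The coreceptors and FGF-binding partners on the cell surface were mixed as a group. Of 19 genes listed, 10 were tested, with 1 (10%) called higher and 3 (30%) lower, beside 13.2% and 13.1% of all tested genes. Their median log2 fold change was -0.03, the median over all tested genes being 0.03. Gpc1, a heparan sulfate proteoglycan that binds FGFs, had 23, 18 and 27 counts in IRF3-2D libraries, against 325, 214 and 247 in Ctrl libraries, and fell 14.2-fold (adjusted p = 0.000103 by edgeR). Fgfrl1, a receptor-like protein without a kinase domain, had 162, 181 and 209 counts in IRF3-2D and 332, 449 and 579 in Ctrl libraries and fell 3.02-fold (adjusted p = 0.00182 by edgeR). Kl, which encodes alpha-Klotho, had at most 2 counts in any library. In the list, 4 were higher and 2 lower with library totals alone, without both pancreas-rich libraries 0 and 2, and without IRF3-2D replicate 1 alone 0 were higher.

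Enzymes that build and edit heparan sulfate, the glycan that FGF1-type ligands need, had calls both ways, at shares near those of all tested genes. Of 12 tested genes of 15 listed, 2 (16.7%) were called higher and 2 (16.7%) lower, beside 13.2% and 13.1% of all tested genes. Their median log2 fold change was -0.17. Ndst1, an N-deacetylase and N-sulfotransferase, had 1334, 1438 and 1358 counts in IRF3-2D libraries, against 3549, 3464 and 3671 in Ctrl libraries, and fell 3.18-fold (adjusted p = 4.41e-05 by edgeR). Sulf2, which strips sulfates from finished chains outside the cell, had 970, 672 and 961 counts in IRF3-2D, against 379, 267 and 333 in Ctrl, and rose 2.16-fold (adjusted p = 0.00363 by edgeR). Glce, an epimerase, rose 1.45-fold (adjusted p = 0.00934 by edgeR). Lower calls numbered 1 without IRF3-2D replicate 2 or 3 and 4 without Ctrl replicate 1, and library totals alone gave 3 higher and 1 lower. The calls of Ndst1, Sulf2 and Glce held in all of these, and genes whose calls held were mainly the ones chosen to be given. The second lower call of the list was lost with library totals alone and without IRF3-2D replicate 2 or 3.

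Downstream of the receptors, calls in the ERK cascade went both ways, and the lower ones depended on single libraries. Of 26 tested adaptor and cascade genes of 30 listed, 4 (15.4%) were called higher and 6 (23.1%) lower, beside 13.2% and 13.1% of all tested genes, with a median log2 fold change of -0.02. The list had 9 higher and 0 lower calls with library totals alone, and 1 and 0 without both pancreas-rich libraries. Its lower calls numbered 1 without Ctrl replicate 2, 3 without Ctrl replicate 3, and 0 without IRF3-2D replicate 1 or without IRF3-2D replicate 2.

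Inhibitors of the pathway, listed as feedback inhibitors although FGF signals induce only some of them, had 15 tested genes of 18 listed. Of these, 1 (6.67%) was called higher and 2 (13.3%) lower, beside 13.2% and 13.1% of all tested genes. Their median log2 fold change was -0.14. Errfi1, an inhibitor of EGF receptor signalling, had 14793, 14898 and 17190 counts in IRF3-2D libraries, against 30138, 30203 and 35803 in Ctrl libraries, and fell 2.52-fold (adjusted p = 0.000192 by edgeR). Library totals alone gave 2 higher and 1 lower in the list. The call of Errfi1 held in every fit tried, whereas the other 2 calls of the list were lost when single libraries were left out: the higher call without each library other than IRF3-2D replicate 3, and the second lower call without each library other than Ctrl replicate 1. Of 9 tested transcription factor genes that respond to ERK, 2 (22.2%) were called higher and 0 lower, beside 13.2% and 13.1% of all tested genes. Their median log2 fold change of 0.40 was 0.10 without IRF3-2D replicate 1. Jun, a subunit of AP-1, had 1149, 835 and 826 counts in IRF3-2D, against 453, 299 and 384 in Ctrl, and rose 2.01-fold (adjusted p = 0.00658 by edgeR). The higher calls numbered 1 when any of the 3 Ctrl libraries, IRF3-2D replicate 1 or IRF3-2D replicate 2 was left out, and Jun kept its call.

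Upstream of Fgf21, genes of its known transcriptional regulators were examined together with Irf3 and Polr2g. Of 29 tested of 34 listed, 5 (17.2%) were called higher and 9 (31%) lower, beside 13.2% and 13.1% of all tested genes. Their median log2 fold change was -0.26. Irf3, the gene of the allele, and Polr2g, both named in the series title, are on this list and among the higher calls. The share called higher counts them, so it is not read as a trait of the other regulators. Ppara, the nuclear receptor that induces Fgf21 in fasting, had 744, 736 and 878 counts in IRF3-2D libraries, against 1603, 1552 and 1863 in Ctrl libraries, and fell 2.62-fold (log2 fold change -1.39, SE 0.10, adjusted p = 0.000169 by edgeR). Rxra, its dimer partner and named after its values were seen, had 11, 19 and 29 counts in IRF3-2D, against 102, 162 and 88 in Ctrl, and fell 7.35-fold (adjusted p = 0.00369 by edgeR). The Rxra value, at 9.61 CPM in Ctrl and with 6 annotated transcripts, may cover only some of the gene's output. Mlxipl, which encodes the sugar-responsive factor ChREBP and was also named after its values were seen, fell 2.02-fold (adjusted p = 0.00114 by edgeR). The groups did not overlap for Ppara, Rxra or Mlxipl. Rxrb, also on the list and named after its values were seen, averaged 24.2 CPM in IRF3-2D and 18.2 CPM in Ctrl. It rose 1.33-fold (adjusted p = 0.0472 by edgeR). Atf4, whose product binds the ATF4 element marked above, was not called (log2 fold change 0.11, adjusted p = 0.387 by edgeR).

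Atf6, a sensor of stress in the endoplasmic reticulum, fell 1.79-fold (adjusted p = 0.000924 by edgeR), and Stat5b, which carries the growth hormone signal and shares 15.2% of its words with other genes, fell 2.03-fold (adjusted p = 0.000805 by edgeR). Among the higher genes, beside Irf3 and Polr2g themselves, Ppargc1a, a coactivator of PPARalpha that was named after its values were seen, had 1533, 1438 and 1385 counts in IRF3-2D and 573, 415 and 611 in Ctrl libraries, a rise of 2.22-fold (adjusted p = 0.00105 by edgeR). The list of regulators had 11 higher and 5 lower calls with library totals alone, and without both pancreas-rich libraries 4 and 6. The calls of Ppara, Rxra, Mlxipl, Atf6, Stat5b and Ppargc1a held in both, and mainly genes whose calls held were chosen to be given.

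Other targets of the factors that induce Fgf21 were set beside it. Of 31 tested PPARalpha targets of 35 listed, 16 (51.6%) were called lower and 4 (12.9%) higher, beside 13.1% and 13.2% of all tested genes. Their median log2 fold change was -0.53. Of 19 tested hepatocyte markers, 13 (68.4%) were called lower and 2 (10.5%) higher, with a median of -0.75. Acot4, a peroxisomal thioesterase, had 144, 133 and 196 counts in IRF3-2D libraries, against 498, 542 and 742 in Ctrl libraries, and fell 4.62-fold (adjusted p = 0.00038 by edgeR). Acadl, an enzyme of beta-oxidation, fell 2.15-fold (adjusted p = 0.000512 by edgeR). Acot1, a cytosolic thioesterase that shares 22.7% of its words with its relatives, fell 11.3-fold (adjusted p = 0.000121 by edgeR). The 4 called higher were Plin2, Cyp4a31, Cyp4a32 and Ucp2, all named after their values were seen. Plin2 had 148, 277 and 62 counts in IRF3-2D and 4, 19 and 8 in Ctrl libraries, and rose 12.6-fold (adjusted p = 0.0112 by edgeR). Cyp4a31 rose 4.60-fold, Cyp4a32 2.38-fold and Ucp2 1.48-fold, and the first 2 share 32% and 62.8% of their words with other genes. Library totals alone gave 10 lower and 5 higher, and without both pancreas-rich libraries 10 were lower and 3 higher.

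Of 21 tested ATF4 targets of 30 listed, 2 (9.52%) were called higher and 5 (23.8%) lower, beside 13.2% and 13.1% of all tested genes. Their median log2 fold change was -0.32. Trib3, a pseudokinase induced by ATF4, had 102, 106 and 203 counts in IRF3-2D libraries, against 433, 342 and 329 in Ctrl libraries, and fell 3.31-fold (adjusted p = 0.00499 by edgeR). Chac1, which degrades glutathione, had 49, 38 and 50 counts in IRF3-2D, against 114, 169 and 145 in Ctrl, and fell 3.85-fold (adjusted p = 0.00147 by edgeR). Gdf15, which like Fgf21 encodes a stress-induced hormone of the liver, was higher. It had 706, 526 and 516 counts in IRF3-2D, against 214, 112 and 205 in Ctrl, and rose 2.68-fold (adjusted p = 0.00539 by edgeR). Asns and Atf3 were listed at 0 in every library. Library totals alone gave 7 higher and 4 lower, and lower calls numbered 3 without Ctrl replicate 3, IRF3-2D replicate 1 or IRF3-2D replicate 2. Higher calls numbered 1 without IRF3-2D replicate 1, without IRF3-2D replicate 2 or without both pancreas-rich libraries.

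Of 18 tested ChREBP targets of 22 listed, 8 (44.4%) were called lower and 0 higher, beside 13.1% and 13.2% of all tested genes. Their median log2 fold change was -0.63. Mlxipl itself is on this list and among the lower calls. The hepatocyte markers had 68.4% called lower and 10.5% higher, with a median of -0.75. Thrsp, a regulator of lipid synthesis, had 11055, 10520 and 14457 counts in IRF3-2D libraries, against 30142, 26190 and 31667 in Ctrl libraries, and fell 3.01-fold (adjusted p = 0.000351 by edgeR). G6pc, the glucose-releasing phosphatase, fell 2.59-fold (adjusted p = 0.000358), Elovl6, a fatty acid elongase, fell 2.54-fold (adjusted p = 0.000469), and Fasn, fatty acid synthase, fell 2.25-fold (adjusted p = 0.00072, all by edgeR). Library totals alone gave 8 lower and 4 higher, and without both pancreas-rich libraries 7 were lower and 0 higher.

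**Figure D4:**
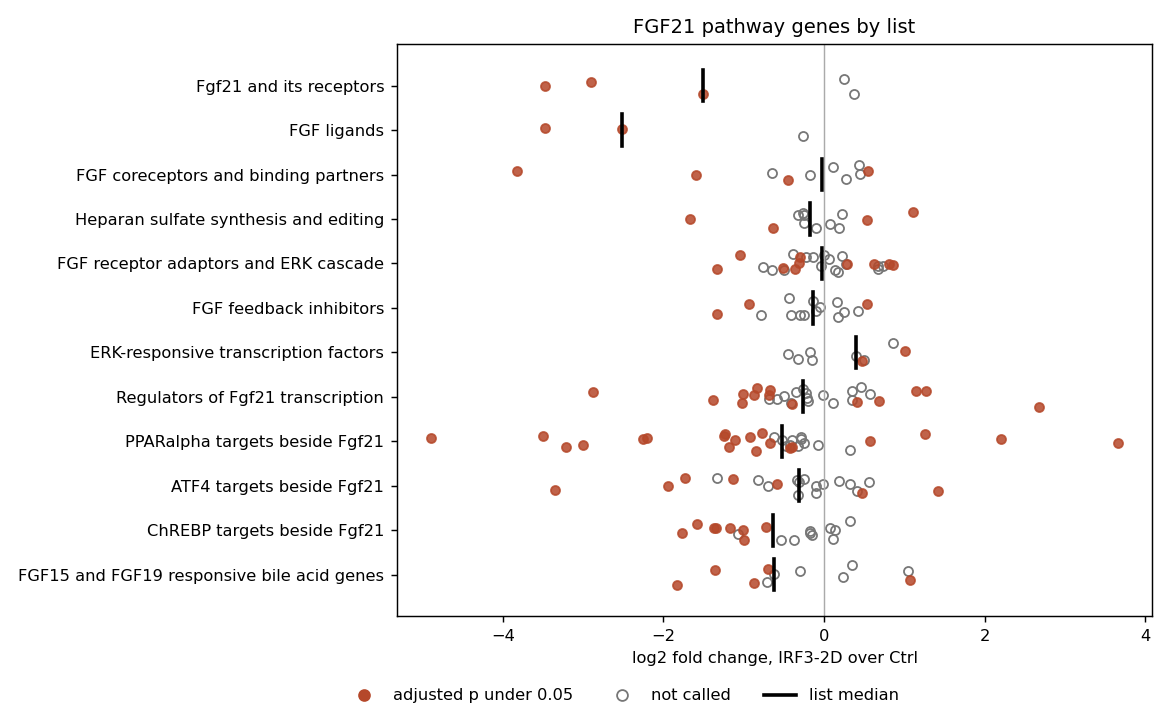
Log2 fold change (IRF3-2D over Ctrl, horizontal axis) of every tested gene in the FGF21 pathway lists, 1 line of points per list, with filled points for an adjusted p under 0.05, open points for no call and a bar at the list median. The medians run from -2.51 for the 3 ligand genes to 0.40 for the transcription factors that respond to ERK.

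Bile acid genes were set beside Fgfr4, among them genes that FGF15 represses. The list also holds bile acid carriers and regulators, so its counts were not taken as a measure of FGFR4 signalling. Of 11 tested genes of 14 listed, 1 (9.09%) was called higher and 4 (36.4%) lower, beside 13.2% and 13.1% of all tested genes. Their median log2 fold change was -0.62. Cyp8b1, the sterol 12-alpha-hydroxylase that FGF15 represses, had 17800, 16461 and 20473 counts in IRF3-2D libraries, against 5107, 8401 and 7575 in Ctrl libraries, and rose 2.10-fold (adjusted p = 0.00697 by edgeR). Cyp7a1, the rate-limiting enzyme of bile acid synthesis and the best-known gene repressed by FGF15, had 1516, 1148 and 2058 counts in IRF3-2D and 311, 725 and 826 in Ctrl libraries. It was named after its values were seen. Its groups did not overlap, but it was not called by edgeR (log2 fold change 1.04, adjusted p = 0.0721), while DESeq2 (adjusted p = 0.0102) and library totals alone (adjusted p = 0.00906) called it higher.

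Genes of 2 bile acid carriers fell. Abcb11, the canalicular bile salt pump, had 7375, 6560 and 7401 counts in IRF3-2D, against 14255, 14628 and 15539 in Ctrl libraries, and fell 2.57-fold (adjusted p = 8.05e-05 by edgeR). Slc10a2, a sodium-dependent uptake carrier, had 387, 352 and 249 counts in IRF3-2D, against 1406, 611 and 852 in Ctrl, and fell 3.57-fold (adjusted p = 0.0059 by edgeR). The bile acid list had 4 higher and 2 lower calls with library totals alone, and without both pancreas-rich libraries 1 and 2. Without IRF3-2D replicate 3 its higher calls numbered 2.

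Genes whose levels over the 6 libraries were most like those of each called member were found by the Euclidean distance of centred log2 CPM, among 9221 tested genes. For Fgf21 they were Dip2a (distance 0.893), Ntn3 (1.12) and Vars (1.15), each at 0 in IRF3-2D replicate 1, where Fgf21 had 1 count. For Fgfr4 they were Fabp2 (0.489), Srd5a2 (0.515) and Upp2 (0.599), all called lower. Fabp2, a fatty acid binding protein, had 146, 123 and 168 counts in IRF3-2D libraries, against 1100, 716 and 1045 in Ctrl libraries. For Fgfr3 they were Suox (0.306), Thrsp (0.317) and Slco2b1 (0.335), also all called lower, with Suox, the mitochondrial sulfite oxidase, at 660, 678 and 917 counts in IRF3-2D and 1772, 1711 and 2105 in Ctrl libraries. Thrsp is the ChREBP target described above. The 3 Fgf21 neighbours in level were low in counts, and Vars was not called (adjusted p = 0.0645 by edgeR).

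**Figure D5:**
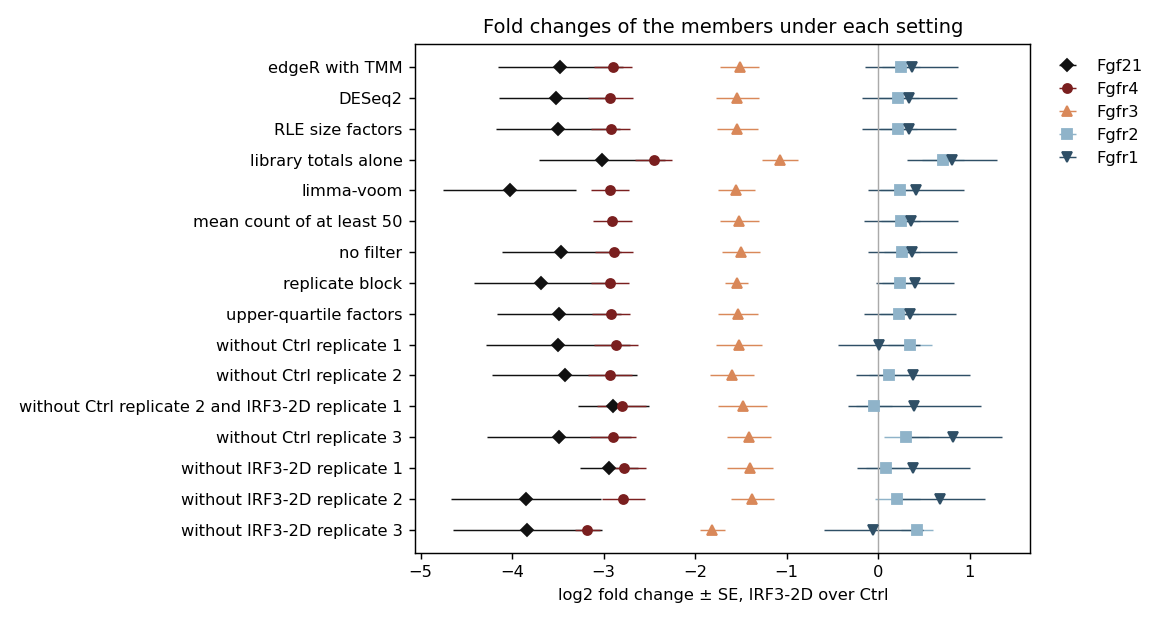
Log2 fold change (IRF3-2D over Ctrl, horizontal axis) with its standard error for each member under each scaling, test, filter and set of libraries. Fgf21, Fgfr4 and Fgfr3 stay below 0 in all settings in which they were tested, and the values of Fgfr2 and Fgfr1 lie between -0.050 and 0.82.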

How the data were processed

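RNA of 6 mouse liver samples, 3 IRF3-2D and 3 Ctrl, was sequenced after poly-A selection with a strand-specific library, per the labels' protocols. The deposited values are estimated counts per gene, not normalized. The submitters' processing notes name Salmon 1.2.1 and, with no role stated, GRCm38 and mm10. Not given in the sources used here are the annotation, how transcripts were summed to genes, and the strand setting. All values were whole numbers, so they were treated as rounded estimates. Several housekeeping genes stood near 0, so some transcripts of a gene may be missing from its value. Groups were taken from the sample titles and columns were matched by the library names in the labels. Of 20894 identifiers, 20817 had a symbol in GENCODE M21, which also gave coordinates and transcript lengths. Libraries held 12054096 to 14830629 counts, and 3 counts were 0.194 to 0.252 CPM. Between replicates, chi-square over its degrees of freedom was 18.9 to 110, so no replicates agreed within sampling noise.

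The default filterByExpr filter of edgeR 4.0.16 (R 4.3.3) left 10802 genes. IRF3-2D was tested against Ctrl with the quasi-likelihood F-test of edgeR, TMM scaling and no covariate, adjusted by Benjamini-Hochberg over all tested genes with a threshold of 0.05. The common coefficient of biological variation was 25.7%. Alternatives were DESeq2 1.42.0, voom of limma 3.58.1, RLE, upper-quartile and no scaling factors, other filters, a replicate block and leaving out each library. Leaving out both pancreas-rich libraries was added after seeing the data. Receptor shares used counts per kilobase of the longest annotated transcript.

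The members and the 20 gene lists set beside them were chosen with earlier results of these data known. Some genes, such as Mlxipl, Creb3l3 and Nr0b2, are on more than 1 list. Named genes are the members, Irf3, Polr2g and, from each list, at most the 4 called genes with the smallest adjusted p. The 3 nearest patterns of each called member are also named. Kl, Fgf2, Rxra, Mlxipl, Ppargc1a, Cyp7a1 and neighbours of the members were named after their values were seen. The same holds for Rxrb, Atf4 and the 4 PPARalpha targets called higher, which were not followed one by one through the alternatives. Of the list genes named by the rule, mainly those whose call held in every fit are given. Ddit3 has more than 1 identifier and was left out. Some genes that the rule names are not reported here. Promoter windows are RefSeq's, and no genome or protein sequence was used.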

Additional observations from a re-analysis of the deposited data

How the results depend on the processing

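The calls and directions of Fgf21, Fgfr4 and Fgfr3 held under each alternative in which they were tested. Fgf21 ranged from -4.03 with limma-voom to -2.89 without both pancreas-rich libraries on the log2 scale, and it was not tested with a mean count of at least 50, since its own was 49.2. Klb gave no value under any alternative. Fgfr4 ranged from -3.18 to -2.45 and Fgfr3 from -1.81 to -1.07. Fgfr2 became a call with library totals alone (0.71) and turned to -0.049 without both pancreas-rich libraries; with single libraries left out it ranged from 0.084 to 0.42. Fgfr1 ranged from -0.050 to 0.82 when single libraries were left out, turning sign without IRF3-2D replicate 3.

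Genes called higher and lower numbered 4500 and 571 with library totals alone, and 568 and 582 without both pancreas-rich libraries. With single libraries left out, 854 to 1330 genes were higher and 931 to 1371 lower, fewest without IRF3-2D replicate 2. The Fgfr4 share differed by -15.8 points with no length, -26.2 with the union of exons and -4.22 with the shortest coding transcript. With library totals alone Furin (0.019) and Sdc4 (0.0090) turned sign. With single libraries left out the list medians ran from -0.71 to -0.31 for the bile acid genes, -0.32 to -0.17 for ATF4 targets, -0.28 to -0.013 for feedback inhibitors and 0.10 to 0.50 for the ERK-responsive factors. In these reversals and lost calls the cause was not tested. Of 64 named genes called beside the members and followed through the alternatives, 41 kept their call under every one.

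Same-numbered samples did not deviate together (correlations 0.0960, -0.0339 and 0.0449), so the numbers were not taken to pair the samples. With the replicate block, 1038 genes were higher and 1128 lower, Fgf21 was at -3.69 (adjusted p = 0.0275 by edgeR), and no member's call changed. Among the lists, lower calls with the block numbered 1 in the ERK cascade, against 6 without it, 3 against 6 among endothelial, and 1 against 3 among adipocyte markers; feedback inhibitors had 0 higher and 1 lower, FGF21 protein fate 1 lower and the ERK-responsive factors 1 higher. Depth limits Fgf21 most, at 29 counts summed over the IRF3-2D libraries.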

Other observations

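Other hormones and secreted factors of the liver were measured beside Fgf21. Of 20 tested genes of 25 listed, 4 (20%) were called higher and 5 (25%) lower by edgeR, beside 13.2% and 13.1% of all tested genes. Their median log2 fold change was -0.19, against 0.03 over all tested genes. Igf1, the growth hormone-dependent growth factor, had 1142, 1093 and 916 counts in IRF3-2D libraries, against 1996, 2331 and 2196 in Ctrl libraries, and fell 2.55-fold (adjusted p = 0.000413 by edgeR). Enho, which encodes the peptide adropin, had 64, 62 and 46 counts in IRF3-2D, against 325, 200 and 167 in Ctrl, and fell 4.96-fold (adjusted p = 0.00202 by edgeR). Selenop, the selenium carrier of plasma, fell 1.72-fold (adjusted p = 0.00057 by edgeR).

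Fst, whose product binds activins and which is secreted by liver, had 248, 201 and 202 counts in IRF3-2D, against 56, 28 and 57 in Ctrl libraries, and rose 3.76-fold (adjusted p = 0.00297 by edgeR). Library totals alone gave 8 of these genes higher and 4 lower, and without both pancreas-rich libraries 3 were higher and 3 lower. Higher calls numbered 2 without Ctrl replicate 3, IRF3-2D replicate 1 or IRF3-2D replicate 2. The calls of Igf1, Enho, Selenop and Fst held in all of these, and genes whose calls held were mainly the ones chosen to be given.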
